A study of Mus musculus with 14 samples.

Results

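Jag2, Hey1 and Gli2 are 3 genes of the Notch and Hedgehog pathways that were described here in mammary tumours from the offspring of mothers fed genistein, a soy isoflavone, and of mothers fed control diet. They were taken by name from the 1324 genes selected on a DESeq adjusted p under 0.05 between these groups by the authors, together with every listed CpG site or region that the deposited tables annotate to them, place beside them or pair with them. That gave 3 of 1324 genes, 6 of 4327 CpG sites and none of 139 regions. Both tables had been filtered on the same comparison of diets, so the fold changes and methylation differences below are descriptions of chosen features and carry no test of their own.

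All tumours came from FVB mice carrying the SV40 Tag transgene, a viral oncogene, at about 25 weeks of age. All offspring ate control diet themselves. In the maternal genistein group the mothers had received 250 mg/kg genistein in the diet from 4 weeks of age until weaning, and in the control group the mothers had received control diet over the same period. RNA sequencing and RRBS (reduced representation bisulfite sequencing, a measure of methylation at CpGs in restriction fragments) each covered 3 control and 4 maternal genistein tumours. The labels do not name the promoter of the transgene, and do not say whether tumours of 1 group came from separate litters, so the permutation tests below measure only the spread between these libraries.

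Notch signalling passes between touching cells. A ligand such as Jag2 on one cell binds a Notch receptor on its neighbour, the receptor is cut, and its intracellular part joins the DNA-binding protein RBPJ to switch on targets such as Hey1, a transcriptional repressor of the basic helix-loop-helix class. Hedgehog ligands relieve the block that the receptor Ptch1 places on Smo, after which the zinc finger factors of the Gli family, Gli2 the main activator among them, carry the signal to the nucleus. Both pathways act in the growth and cell fate choices of the mammary gland.

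Jag2 lies on chromosome 12 (112907803 to 112929812), Hey1 on chromosome 3 (8663359 to 8667038) and Gli2 on chromosome 1 (118834061 to 119054405), by the RefSeq annotation of GRCm38.p6. The promoter windows of Jag2 and Gli2 are shown because they hold the gene starts from which the distances of their methylation sites are counted. These starts, 112929495 for Jag2 and 119053619 for Gli2, lie inside the outer gene ends given above. No window was available for Hey1. Each runs from 250 bases before to 50 bases after the start, 5′ to 3′ on the gene's own strand, which is the minus strand for both, and capitals mark CpG dinucleotides. The sequences are from RefSeq (GRCm38.p6), chr12:112929446-112929745 for Jag2 and chr1:119053570-119053869 for Gli2.
Jag2: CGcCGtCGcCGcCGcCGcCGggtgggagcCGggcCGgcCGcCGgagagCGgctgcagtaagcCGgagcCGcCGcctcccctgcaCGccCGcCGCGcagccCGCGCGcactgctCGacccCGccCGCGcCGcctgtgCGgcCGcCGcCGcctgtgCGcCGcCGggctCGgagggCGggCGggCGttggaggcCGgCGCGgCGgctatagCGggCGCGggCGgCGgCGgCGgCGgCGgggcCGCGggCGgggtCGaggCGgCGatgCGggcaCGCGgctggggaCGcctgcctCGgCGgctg
Gli2: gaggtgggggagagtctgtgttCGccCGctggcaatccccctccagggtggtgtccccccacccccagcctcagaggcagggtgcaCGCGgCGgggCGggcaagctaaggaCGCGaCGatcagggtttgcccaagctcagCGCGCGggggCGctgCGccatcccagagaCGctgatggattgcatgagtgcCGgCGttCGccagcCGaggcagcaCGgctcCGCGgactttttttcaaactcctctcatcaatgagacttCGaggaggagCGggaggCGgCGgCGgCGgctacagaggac

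The Jag2 window held 63 CpGs and the Gli2 window 28, against a median of 7 over 32851 RefSeq promoter windows. None of the 6 listed sites fell inside either window. The letters CACGCG, a sequence bound by factors of the Hey family, were found on either strand in both windows and in 9.27% of all windows. These letters themselves contain CpGs, in which both windows are rich. The share among windows of like CpG count was not computed, so nothing is read from these matches. The letters GTGGGAA, bound by RBPJ (6.38% of windows), GACCACCCA, bound by Gli factors (0.253%), and CACGTG, also bound by Hey factors (7.15%), were searched on both strands and were not in these windows.

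In RNA, the ligand gene Jag2 and the transcription factor gene Gli2 were higher and the Notch target Hey1 was lower in tumours of the maternal genistein group. By the authors' deposited table Jag2 had a log2 fold change of 1.46 (SE 0.28), which is 2.76-fold higher with a 95% interval from that standard error of 1.89 to 4.03. Gli2 had a log2 fold change of 2.41 (SE 0.52) in the authors' deposited table, or 5.32-fold higher with an interval of 2.62 to 10.8. Hey1 stood at -2.09 (SE 0.62) in the authors' deposited table, or 4.25-fold lower with an interval of 1.82 to 9.89. Hey1 thus had the widest interval of the 3 on the log2 scale, and the intervals of Jag2 and Gli2 overlap.

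These 3 folds sit in different places among the called genes. Over the whole of the authors' deposited table the median log2 fold change was 1.68 for higher and -1.47 for lower genes. By size of fold Gli2 ranked 235 among 768 higher genes, Jag2 ranked 441 among the same genes, and Hey1 ranked 168 among 556 lower genes. The DESeq adjusted p-values in the authors' deposited table, which chose the genes at a threshold of 0.05, were 1.26e-05 for Jag2, 0.000204 for Gli2 and 0.0158 for Hey1. Hey1 is the member nearest that threshold, and genes beyond it were not analysed here. With edgeR, the authors' deposited table gave log2 fold changes of 1.45, 2.40 and -2.10 for Jag2, Gli2 and Hey1, with false discovery rates of 0.000241, 0.00076 and 0.00487. All 3 rates are under 0.05, as were those of 70.5% of the genes in the authors' deposited table. Mean normalised counts over all libraries were 1263 for Jag2, 782 for Hey1 and 466 for Gli2 in the authors' deposited table, and they are not corrected for gene length. RNA values per tumour were not used here, so whether 1 tumour carries a fold was not examined. In whole tumours, fewer cells that express a gene and less RNA per cell cannot be told apart.

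The sign of these folds needs a reading, because the RNA table names no numerator for its fold change. Across 20 chromosomes the share of called genes with a positive fold and the difference in RRBS read coverage, maternal genistein minus control, were related with r = 0.906 (Pearson) and rho = 0.929 (Spearman). With chromosomes 1, 3 and 12, which carry the members, left out, r was 0.932 over 17 chromosomes. Positive folds are therefore read as higher in maternal genistein tumours, on the assumption that expression follows DNA dosage. With the opposite reading, Jag2 and Gli2 would be lower and Hey1 higher.

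**Figure D1:**
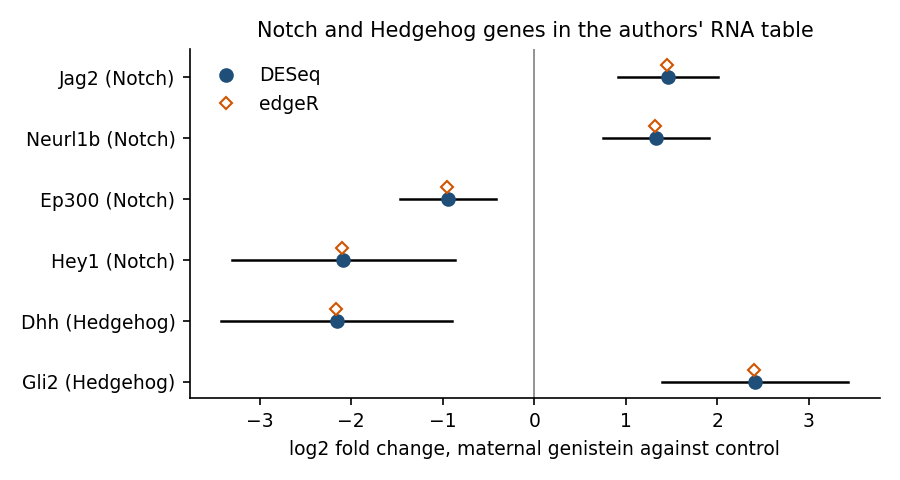
Log2 fold change (x axis, maternal genistein against control) of the 6 genes of the Notch and Hedgehog lists in the authors' deposited table. Circles are DESeq values with 95% intervals from the deposited standard errors, diamonds are edgeR values. Jag2, Neurl1b and Gli2 lie above 0 and Ep300, Hey1 and Dhh below it.

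Of 81 genes in lists of Notch and Hedgehog components, 6 were in the table, the 3 members and 3 others. They were 3 higher and 3 lower, where higher genes made up 58% of the whole table and lower genes 42%. The number of genes tested was not used here, so counts of called list genes have no called share over all genes beside them. These counts are therefore descriptions, and nothing about the lists is read from them. Among Notch genes, 1 of 7 ligands (Jag2) and 1 of 19 processing and modifier genes were called. The latter was Neurl1b, a ubiquitin ligase that acts on Notch ligands, with a log2 fold of 1.33 (SE 0.30) by the authors' deposited table. The nuclear cofactor Ep300, a histone acetyltransferase, was lower at -0.94 (SE 0.27) in the authors' deposited table, 1 of 10 such genes called. Hey1 was the one call among 11 Notch targets. Of the 4 Notch receptors none was called.

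Among Hedgehog genes, 1 of 7 genes for ligands and their release was called, Dhh, the desert hedgehog ligand, with a log2 fold change of -2.16 (SE 0.64) in the authors' deposited table. Its mean normalised count was low, at 65.0. Gli2 was the one call among 11 genes of signal transduction. None of 8 receptor and coreceptor genes and none of 8 Hedgehog targets, among them Gli1, Ptch1 and Hhip, was in the DESeq table. Unadjusted p-values of uncalled genes were not used here, so those genes may have changed by less than the table's threshold can show.

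Markers of cell types that use these pathways were called as follows, again without a called share over all genes to set beside the counts. Of 10 basal epithelial markers 5 were called, 4 higher and 1 lower, with log2 folds by the authors' deposited table of 4.73 (SE 0.71) for Trp63 and 4.49 (SE 0.78) for Krt5, and of -1.25 (SE 0.36) for the integrin gene Itga6, the lower one. Of 10 luminal markers 4 were called, 1 higher and 3 lower, with Elf5, a regulator of alveolar cells, at -2.68 (SE 0.50) and the progesterone receptor gene Pgr, the higher one, at 2.96 (SE 0.67) in the authors' deposited table. Flt1, a receptor for vascular growth factor, was the one call among 10 endothelial markers, at 1.56 (SE 0.49) in the authors' deposited table. No fibroblast or leukocyte marker, of 10 each, was called, but the plasma cell gene Igha, which is not in the leukocyte list, was higher at 5.75 (SE 0.92) in the authors' deposited table. Summed marker levels per tumour were not available from called genes, and the part of cell composition in the folds of Jag2, Hey1 and Gli2 was not tested.

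The called genes found near the members all lay on the higher side, where 58% of all called genes were higher. No called share over all genes stands beside these counts, so nothing is read from them. The protein-coding starts given below may not include every called gene or transcript. Within 1 Mb of Gli2, a window with the starts of 9 other protein-coding genes, 3 genes and transcripts were called, all higher by the authors' deposited table: Tfcp2l1, a transcription factor, at 1.17 (SE 0.32), Epb41l5 at 0.78 (SE 0.24) and 3830432H09Rik at 3.70 (SE 0.79). The edgeR false discovery rate of Epb41l5 was 0.0552 by the authors' deposited table. Within 1 Mb of Jag2, a window with 33 other protein-coding starts, the table held Kif26a at 2.77 (SE 0.41) in the authors' deposited table. It also held Igha there, the immunoglobulin gene given above. No called gene lay within 1 Mb of Hey1, where only 6 other protein-coding genes start. Over whole chromosomes the calls were 16 higher and 16 lower on chromosome 12, 18 and 19 on chromosome 3, and 35 and 25 on chromosome 1.

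In DNA, methylation was lower in maternal genistein tumours at the 5 listed sites in Gli2 and beside Hey1, and higher at the 1 site that the authors paired with Jag2. Lower sites made up 46.9% of all listed sites and higher sites 53.1%. The 6 sites are 4 separate places, since pairs of CpGs 2 bases apart in Gli2 and 17 bases apart beside Hey1 had the same read coverage in every library and so share their reads. The authors listed a site when the pooled-read difference reached 25 percentage points and the q-value stayed under 0.01. Levels below are methylated reads over all reads at a site, in mm10 coordinates, which are those of GRCm38. Intervals and limits for single libraries cover counting error only, because reads copied by PCR are not independent molecules.

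**Figure D2:**
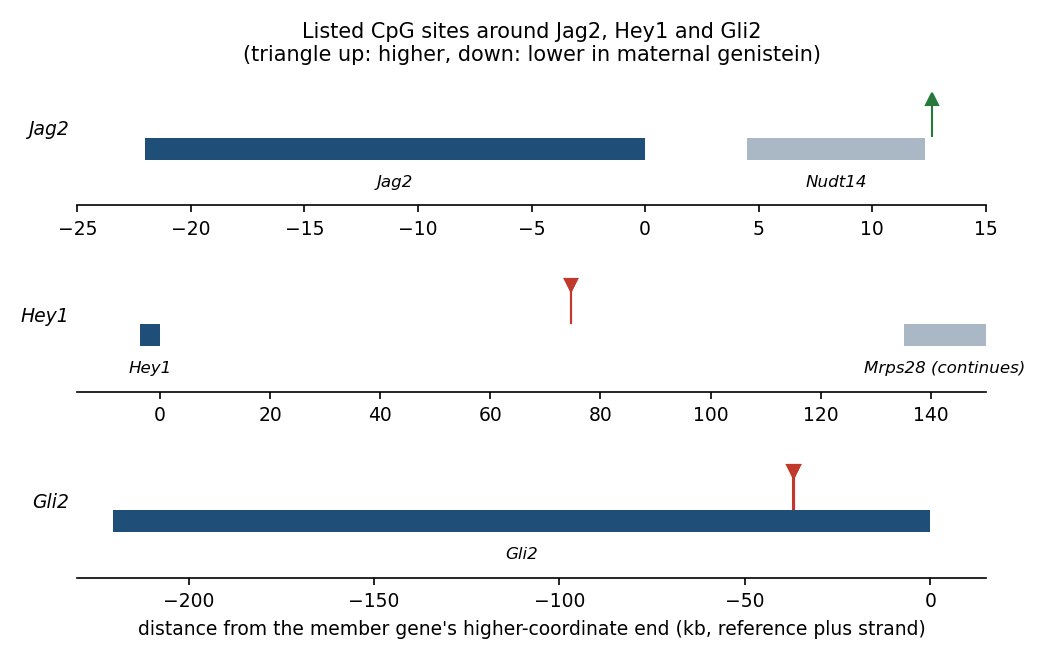
Position of the listed CpG sites relative to each gene. The x axis is the distance in kb from the member gene's end with the higher coordinate, dark bars are the member genes, and pale bars are the neighbours Nudt14 and Mrps28. Triangles pointing up mark a higher and triangles pointing down a lower level in maternal genistein tumours, and sites in the same gene merge at this scale.

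The Gli2 sites lie in an intron at positions 119017449, 119017614 and 119017616 of chromosome 1, which is 36.0 to 36.2 kb from the gene start by the authors' pairing table. At 119017616 the control libraries stood at 100% (13 of 13 reads), 68.2% and 55% for replicates 1 to 3. The maternal genistein libraries stood at 0% (0 of 13 reads, which allows up to 23.1%), 0% (0 of 11 reads, up to 27.3%), 33.3% and 29.4% for replicates 1 to 4. All 4 maternal genistein tumours were thus below all 3 control tumours. The group levels were 74.4% ± 23.1 (SD, n = 3) and 15.7% ± 18.2 (SD, n = 4), a difference of -58.7 points.

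The CpG 2 bases away, 119017614, gave 100%, 54.5% and 45.0% in control and 0%, 0%, 35.7% and 29.4% in maternal genistein tumours. Its group levels were 66.5% ± 29.4 (SD, n = 3) and 16.3% ± 19.0 (SD, n = 4), and again the groups did not overlap. Coverage at this pair of CpGs was 11 to 42 reads. With at least 20 reads required in a library, only control replicates 2 and 3 and maternal genistein replicate 3 remained, and the differences came to -28.3 points at 119017616 and -14.1 points at 119017614.

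The Gli2 site 165 bases before that pair, 119017449, had the smallest difference of the 6. Control libraries stood at 83.3%, 76.0% and 63.6%, and maternal genistein libraries at 52.6%, 58.8%, 58.8% and 31.2%, so the groups did not overlap here either. The means were 74.3% ± 9.95 (SD, n = 3) and 50.4% ± 13.1 (SD, n = 4), at 11 to 25 reads. At this depth single levels are loose: the exact 95% interval was 30.8% to 89.1% for control replicate 3 and 32.9% to 81.6% for maternal genistein replicate 2, and these intervals overlap. The pooled-read difference of -25.9 points put this site just inside the listing minimum of 25.0 points, with a q-value of 0.00452 from the authors. Sites outside that minimum were not analysed here.

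The Hey1 sites lie between genes on chromosome 3, at 8741617 and 8741634, some 74.6 kb from Hey1 and 60.5 kb from Mrps28, a mitochondrial ribosomal protein gene. Mrps28 is thus the nearer gene, and the authors' pairing table holds no line for Hey1. At 8741634 control libraries stood at 37.1%, 89.1% and 83.3%, and maternal genistein libraries at 0% (0 of 32 reads, up to 9.38%), 36.4%, 40.0% and 40.0%. Control replicate 1 fell among the maternal genistein tumours, while control replicates 2 and 3 lay above all of them. The means were 69.8% ± 28.5 (SD, n = 3) and 29.1% ± 19.5 (SD, n = 4), a difference of -40.8 points.

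At 8741617, 17 bases away, control libraries stood at 11.4%, 50% and 63.3%. No methylated read was seen in maternal genistein replicates 1, 2 and 4, among 32, 22 and 10 reads, which allow up to 9.38%, 13.6% and 30.0%, and replicate 3 stood at 25.0%. Replicate 3 of maternal genistein was above control replicate 1, so the groups overlapped at this CpG as well. The means were 41.6% ± 27.0 (SD, n = 3) and 6.25% ± 12.5 (SD, n = 4). Coverage at both Hey1 sites was 10 to 64 reads.

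The site paired with Jag2 is at 112942435 of chromosome 12, 12.9 kb upstream of the Jag2 start. The authors annotated it as upstream of Nudt14, a nucleotide sugar hydrolase gene that lies between the site and Jag2, and it is 293 bases before the RefSeq start of Nudt14. Control libraries stood at 36.2%, 0% (0 of 28 reads, up to 10.7%) and 11.9%. Maternal genistein libraries stood at 86.7%, 22.0%, 48.4% and 58.3%, so 3 of 4 were above every control tumour and replicate 2 lay below control replicate 1. The means were 16.0% ± 18.4 (SD, n = 3) and 53.8% ± 26.7 (SD, n = 4), a difference of 37.8 points at 12 to 67 reads.

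**Figure D3:**
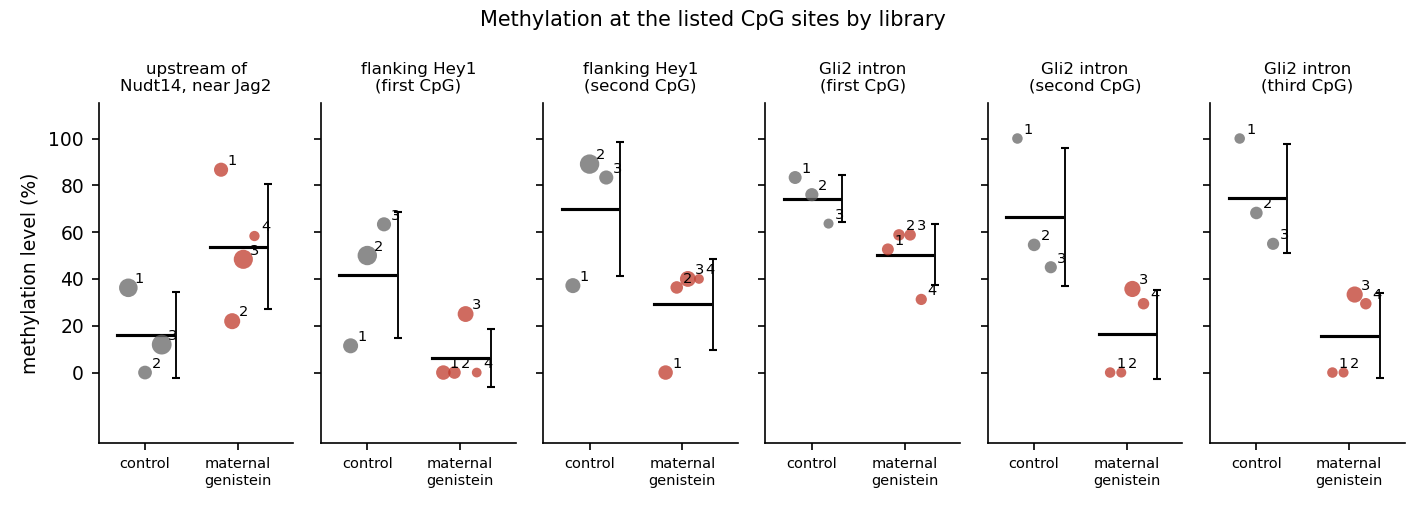
Methylation level (y axis, percent) at the 6 listed sites in each RRBS library. Points are libraries with their replicate number and an area that grows with the read count, horizontal lines are group means and bars are SD (n = 3 control, n = 4 maternal genistein). The 3 Gli2 panels show no overlap between groups, and the Jag2 and Hey1 panels do.

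Across the 6 sites the groups did not overlap at 3, all in Gli2, where 27.8% of all listed sites had groups that did not overlap. Because the sites were listed for this same difference, nothing is read from that comparison. Without control replicate 1, the groups did not overlap at 6 of 6 sites, and at 39.1% of all listed sites. That control tumour had the lowest control level at both Hey1 sites and the highest at the Jag2 site, and the highest control level at all 3 Gli2 sites. Maternal genistein replicate 1 had 0% at both Hey1 sites and at the Gli2 pair, and the highest level of all libraries at the Jag2 site. The levels within a group spanned 19.7 to 55 points in control and 25.0 to 64.7 points in maternal genistein tumours at these sites, against medians of 36.0 and 45.2 points over all listed sites. Depth was modest, with 129 to 298 reads per site over the 7 libraries against a median of 237 over all listed sites. Maternal genistein replicate 4 was the shallowest library, with 10 to 17 reads at the 6 sites.

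RNA and methylation were set side by side only as signs. Gli2 was higher in RNA with lower methylation in its intron. Jag2 was higher in RNA with higher methylation at the site near Nudt14, and Hey1 was lower in RNA with lower methylation at the sites beside it. The RNA and RRBS titles use the same group names and replicate numbers. The labels do not say whether equal numbers mean the same tumour, and no relation across tumours was computed.

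Listed sites of other Notch and Hedgehog genes went in both directions. Besides the members, 17 genes of the lists had 26 listed sites in or beside them, 17 lower and 9 higher in maternal genistein tumours, where 46.9% of all listed sites were lower and 53.1% higher. The groups did not overlap at 9 of the 26 (34.6%), against 27.8% of all listed sites. None of these 17 genes was among the called genes in RNA. In Notch2, which encodes a receptor, an intronic site (chromosome 3, 98016979) stood at 80.4%, 82.0% and 75.6% in control and at 55.3%, 20.3%, 20% and 35.7% in maternal genistein tumours. In Neurl1a, a relative of Neurl1b, 3 neighbouring intronic CpGs on chromosome 19 were lower. At 47243565 control tumours had 92.7% ± 0.99 (SD, n = 3) and maternal genistein tumours 32.6% ± 24.0 (SD, n = 4), without overlap. A region of 10 CpGs around them (47243415 to 47245312) was at 73.7% and 24.2% as the group means of the authors' deposited table, the one listed region in either pathway.

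For the Hedgehog pathway, an intronic site of Sufu, which holds Gli proteins back in the cytoplasm (chromosome 19, 46433768), was at 71.9% ± 1.46 (SD, n = 3) with control and 40.8% ± 21.5 (SD, n = 4) with maternal genistein. The groups did not overlap there. An intronic site of Gli3, a Gli factor that acts mainly as a repressor (chromosome 13, 15588589), was at 34.8% ± 20.3 (SD, n = 3) and 58.0% ± 28.4 (SD, n = 4), and the groups overlapped. The site flanking Hes1, a Notch target (chromosome 16, 30086438, 18.6 kb away), was at 40.6% ± 34.3 (SD, n = 3) and 80.1% ± 16.4 (SD, n = 4), with overlap. Sites in Maml3, a coactivator of Notch targets, went both ways, with a difference of 33.7 points at 51694577 and of -39.1 points at 51842374 of chromosome 3, both with overlap.

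**Figure D4:**
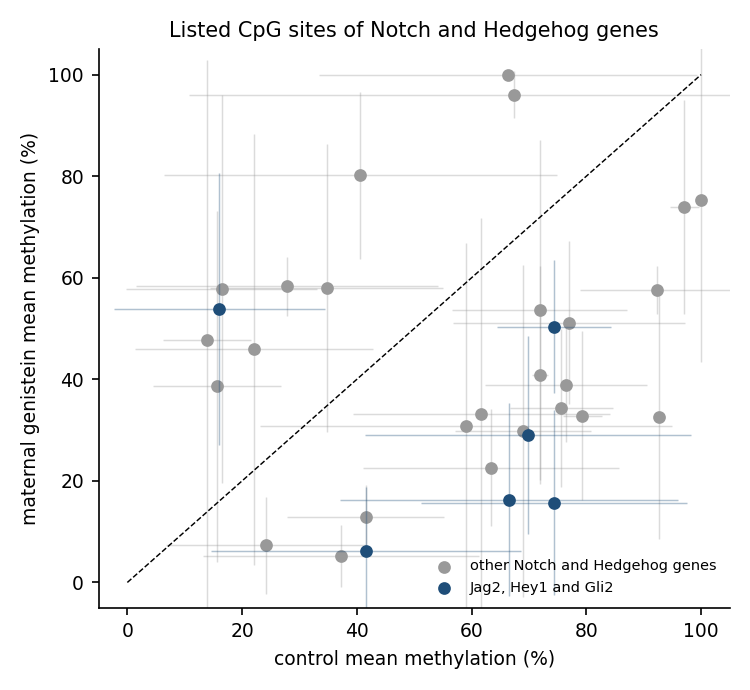
Mean methylation in control tumours (x axis, percent) against maternal genistein tumours (y axis, percent) at the listed sites of Notch and Hedgehog genes. Bars are SD (n = 3 control, n = 4 maternal genistein) and the dashed line marks equal levels. Dark points are the 6 sites of Jag2, Hey1 and Gli2, of which 5 lie below the line, and grey points the 26 sites of other genes, of which 17 lie below it.

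Read coverage, which did not choose the members, was compared between groups as a measure of DNA amount at these chromosomes. Relative coverage is the log2 read number at a listed site less that site's mean over libraries and less each library's autosomal median, summarised as the median over sites. On chromosome 3, which carries Hey1, control libraries had 0.14 ± 0.20 (SD, n = 3) and maternal genistein libraries -0.09 ± 0.28 (SD, n = 4) over 240 sites. The difference was -0.23, with an exact two-sided permutation p of 0.314 and an adjusted p of 0.471 over the 3 chromosomes. On chromosome 1, which carries Gli2, the difference was -0.15 over 316 sites (exact permutation p = 0.314, adjusted p = 0.471). On chromosome 12, which carries Jag2, it was -0.05 over 177 sites (exact permutation p = 0.8286, adjusted p = 0.8286). With 3 against 4 libraries the smallest p this test can give is 0.0286, and the groups overlapped on all 3 chromosomes.

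Single libraries stood out closer to the genes, within 10 Mb, a window added after the data were seen. Near Hey1 maternal genistein replicates 1 and 4 were at -0.70 and -0.50 on the log2 scale and control replicate 2 at 0.54, over 15 sites. Control replicates 1 and 3 were at 0.29 and -0.08 there. Maternal genistein replicates 2 and 3 were at -0.05 and 0.12, so the groups overlapped. Near Gli2 control replicates 1, 2 and 3 were at -0.23, 0.64 and 0.13 over 35 sites. The 4 maternal genistein libraries lay between -0.15 and -0.04, all above control replicate 1 and below the other control libraries. Near Jag2 all 7 libraries lay between -0.20 and 0.31 over 44 sites. Group differences in this window were -0.53 near Hey1, -0.27 near Gli2 and -0.07 near Jag2. Their exact permutation adjusted p-values were 0.386, 0.386 and 0.686. Without control replicate 2 the difference on chromosome 1 changed sign to 0.02. The part of DNA amount in the RNA folds of the 3 genes was not tested.

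**Figure D5:**
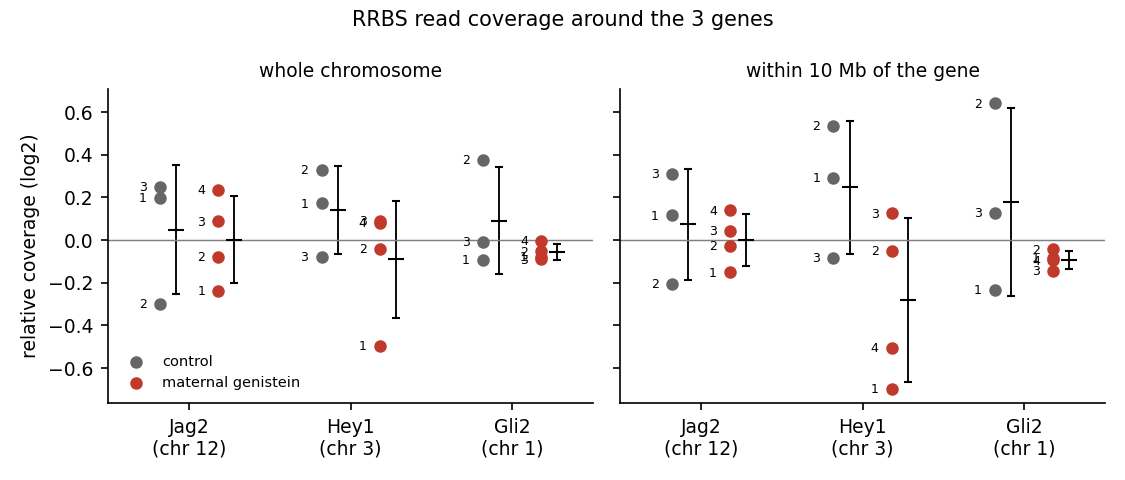
Relative RRBS coverage (y axis, log2) of each library at listed sites on the chromosome of each gene (left) and within 10 Mb of it (right). Points are libraries with their replicate number, and bars give the mean and SD (n = 3 control, n = 4 maternal genistein). Groups overlap on every chromosome, and maternal genistein replicate 1 is lowest near Hey1 at -0.70.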

How the data were processed

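RNA sequencing and RRBS of mammary tumours were compared between 3 control and 4 maternal genistein libraries per assay. The submitters' processing notes name STAR, HTSeq and DESeq, Bismark and Trim Galore, FastQC and R 3.6.1, with builds GRCm38 and mm10. The step of each tool is not given in the sources used here.

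For each called gene the authors deposited, per the file headers, log2 fold changes from DESeq and edgeR, the DESeq standard error, adjusted p-values, and a signal that is the normalised count averaged over libraries. The RNA table holds 1333 lines for 1324 genes, all with a DESeq adjusted p under 0.05, and repeated lines were used once. Gene identifiers were matched to symbols for all 1324. The RRBS table deposited by the authors gives counts of methylated reads and of all reads in each library, percent methylation, p-value and q-value, and a pooled-read difference in points, a score recomputed here from the counts. Tested on the file, no listed site had under 10 reads in any library. The deposited region table gives mean methylation as a fraction, printed here as percent. Reads at listed sites were 203672 to 226194 in control and 113967 to 210974 in maternal genistein libraries.

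Levels, SDs, exact (Clopper-Pearson) 95% intervals, limits at 3 reads for a count of 0, and exact permutation tests were computed with Python 3.11.15, numpy 2.4.6 and scipy 1.17.1, and checked on simulated reads. The members, gene lists and tests were chosen with earlier results of these data known. Named genes were the members, list genes among called genes or with a listed site (examples of the latter), called genes within 1 Mb of a member, and, for each member site, the 2 gene-assigned sites on other chromosomes with the most similar levels. Motifs were chosen after the promoter table was seen. Replicate numbers were not used to pair the libraries in the main results. The deviations of same-numbered libraries correlated at -0.03 to 0.02 over listed sites, and those of differently numbered libraries at -0.07 to 0.05. A shared source that leaves no trace at these sites cannot be seen in this way.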

Additional observations from a re-analysis of the deposited data

Results flagged for a closer look

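Both sites beside Hey1 had 1 maternal genistein library whose level was marked as apart from the other 3. At 8741617 replicate 3 stood at 25.0% while replicates 1, 2 and 4 had no methylated read. At 8741634 replicate 1 stood at 0% while the other 3 lay between 36.4% and 40.0%. The gap to the nearest library exceeded Dixon's 95% critical share of the group's range in each case. Of 35 groups of 4 values looked at, 2 were marked, and chance marks about 1 in 20. At 8741617 the 3 levels tied at 0% make that share as large as it can be. Replicate 4 had only 10 reads there, which allow up to 30.0%, above the level of replicate 3. The 2 marks are not separate, since these CpGs lie 17 bases apart and share their reads.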

How the results depend on the processing

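The RNA folds of Jag2, Hey1 and Gli2 kept their sign and their side of 0.05 with the edgeR columns. All 1324 called genes had the same sign with both tools, and 70.5% had an edgeR false discovery rate under 0.05. The kept signs therefore say nothing particular about the 3 members. At a DESeq adjusted p under 0.01, 0 lower Notch genes and 0 lower Hedgehog genes were left, where 2 and 1 had been called at 0.05, because Hey1, Ep300 and Dhh lie between these thresholds. The sign of the methylation difference was kept in all 59 values over the 6 sites and their alternatives, and 57 moved by less than the spread between libraries. The sites were listed for this same difference and the alternatives reuse the same reads. A kept sign was therefore close to given by the choice and is no support of its own. The other 2 were the Gli2 differences of -14.1 and -28.3 points at 20 reads or more, which leave 3 libraries. Groups did not overlap at 3 to 6 sites when single libraries were left out, with 6 reached without control replicate 1, while the share over all listed sites rose from 27.8% to between 35.6% and 45.0%. Lower sites numbered 5 in each of these cases. No value for the Gli2 site 119017449 exists at 20 reads, since no maternal genistein library had that depth. With single libraries left out, the coverage difference ran from -0.239 to 0.0186 on chromosome 1 (above 0 without control replicate 2), from -0.226 to 0.0277 on chromosome 12 (above 0 without control replicate 3, and at 0.0049 without maternal genistein replicate 1) and from -0.315 to -0.0863 on chromosome 3. The correlation that sets the sign of the RNA folds ran from 0.796 (without control replicate 1) to 0.915. Replicate numbers share no stated source. With the numbers as a block, 5 sites were lower, and the coverage differences were -0.29, -0.17 and -0.12 on chromosomes 3, 1 and 12, with an exact sign-flip permutation adjusted p of 0.75 each. With 3 pairs this test cannot give a p under 0.25, so it could make no call. At 10 to 20 reads a library's level is known only within wide intervals.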

Other observations

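The listed sites on other chromosomes whose levels over the 7 libraries were most like those of the members were looked up among gene-assigned sites. For the site paired with Jag2 they were an intronic site of Nfia (chromosome 4, 97771766; Pearson's r = 0.981) and an exonic site of Krt18, a luminal keratin gene (chromosome 15, 102029493; r = 0.966). For the Hey1 site 8741617 they were an intronic site of Foxp1 (chromosome 6, 99519958; r = 0.978) and a site upstream of Sumf1 (chromosome 6, 108186445; r = 0.963). For the Gli2 site 119017616 they were intronic sites of Lypd6b (chromosome 2, 49909725; r = 0.976) and Igsf21 (chromosome 4, 140130982; r = 0.956). These values of r are the highest on other chromosomes among 2297 gene-assigned listed sites that had all been selected for a difference between the same groups, so high values are given by the choice and carry no test. Krt18 was itself called in RNA, with a log2 fold change of -1.18 (SE 0.40) in the authors' deposited table.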
